A study of Homo sapiens with 3 samples.

Results

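The genes described here are 10 human genes whose products make, recycle or remove deoxynucleotides, the building blocks of DNA: RRM1, RRM2, RRM2B, TYMS, TK1, DTYMK, DUT, DCTPP1, DCK and SAMHD1. They were chosen by symbol from a read count table of 48162 entries, and each symbol has a single entry. All 10 were measured above the low-count limit, a mean of at least 1 CPM (read count scaled to library size) over the libraries, as were 12694 entries in all. The libraries come from HCT116, an established human colon cancer line. The first was made from HCT116 cells given 1 µM palbociclib for 24 hours, the second from HCT116 cells transfected with an siRNA against CDK4 for 24 hours, and the last from untreated HCT116 cells. Palbociclib is a small-molecule inhibitor of the kinases CDK4 and CDK6. An siRNA directs breakdown of the matching mRNA, and the labels do not say which siRNA sequence or transfection reagent was used. Cells with a non-targeting siRNA or with drug solvent alone were not analysed here, so untreated cells are the sole control. There is 1 library per group, every library comes from bulk total RNA of the same line, and nothing can be said of the spread between cultures.

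Ribonucleotide reductase turns ribonucleotides into deoxynucleotides and is the entry point of the whole supply. It is built from a large subunit, RRM1, and a small subunit, which is RRM2 in dividing cells in S phase or RRM2B outside S phase and after DNA damage. Thymidylate has its own branch: DUT makes dUMP from dUTP, TYMS methylates dUMP, TK1 recovers thymidine from outside the cell, and DTYMK passes the product of both routes on. DCK recovers deoxycytidine and purine deoxynucleosides, DCTPP1 hydrolyses dCTP and modified forms of it, and SAMHD1 breaks down deoxynucleotides outside S phase. CDK4 and CDK6 act on the retinoblastoma protein, which restrains the E2F factors that drive many of these genes at the start of S phase.

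The libraries held 18020870 reads for palbociclib, 18349355 for CDK4 siRNA and 20313597 for untreated cells. CDK4, the target of the siRNA, had 1426 reads in the palbociclib, 1059 in the CDK4 siRNA and 2689 in the untreated library, and was at 0.42 of the untreated level in the siRNA library (0.391 to 0.451). Brackets after a value hold its exact 95% interval for counting error only, and PCR copies among the reads would make it too narrow. Of 10 markers of colon epithelium 9, 8 and 7 had reads in the palbociclib, CDK4 siRNA and untreated libraries. EPCAM, KRT8, KRT18, KRT19, CDH1 and CDX2 passed the low-count limit, while the enterocyte marker CDX1 was at 0 in every library. The rest fell below the limit. In the same order of libraries, VIL1 had 5, 0 and 0 reads, LGALS4 had 3, 4 and 0, and KRT20 had 5, 16 and 22. Markers of blood, stromal and endothelial cells summed to between 13.0 and 23.8 CPM per library, with COL1A1 the highest at 8.68, 22.0 and 14.8 CPM in the palbociclib, CDK4 siRNA and untreated libraries. CD14 stood at 3.20 CPM with palbociclib, at 0.152 CPM with CDK4 siRNA and at 0 in untreated cells, and PTPRC, CD3E, COL1A2 and CDH5 were at 0 in every library.

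All 10 genes were lower in the palbociclib library than in untreated cells. In the CDK4 siRNA library their ratios to the untreated level ran between 0.801 and 1.07. With palbociclib the ratios to the untreated level ran between 0.183 for RRM2 and 0.694 for DCK, and every counting interval lay below 1. Over all genes compared, 41.9% had an interval below 1 and 36% an interval above 1. A gene was called lower or higher where its log2 ratio was at least 1 in size, that is 2-fold, and its interval excluded 1. By that rule 5 of the 10 genes were lower with palbociclib, namely RRM1, RRM2, TK1, DUT and SAMHD1, and none was higher, against 13.6% lower and 10% higher of the 12694. The median log2 ratio was −0.91 over the 10 genes and −0.07 over all genes compared. Ratios here rest on libraries scaled by TMM, a method that takes most genes to be unchanged. Scaling by the read totals moved the median of all genes to −0.27 and that of the 10 genes to −1.11, and took the share of higher genes among all calls to 25.7%, against 42.4% with TMM. Upper quartile scaling took that share to 52.6% and the median of all genes to 0.04. The 10 genes lay 0.84 below the median of all genes on the log2 scale under each of these scalings. This had to be so, because rescaling a library shifts all its log2 ratios nearly alike, and it is no check of the result. Mitochondrial, ribosomal RNA, ribosomal protein and MALAT1 entries took 15.2% of reads with palbociclib, 10.2% with CDK4 siRNA and 10.9% in untreated cells, and TMM fitted without them left the median of the 10 genes at −0.91. In RNA from bulk cultures, fewer cells in S phase and less mRNA per cell cannot be told apart.

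**Figure D1:**
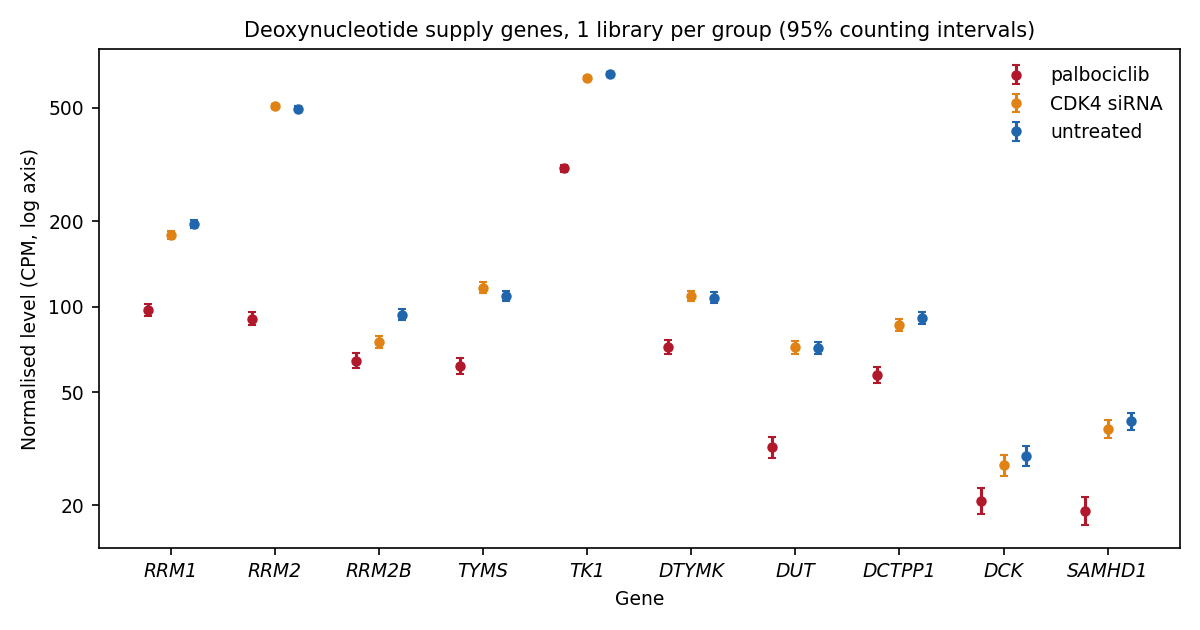
Normalised level of each of the 10 genes in CPM on a log axis, for the palbociclib, CDK4 siRNA and untreated libraries. Points are single libraries, and bars are exact 95% Poisson intervals for counting error. The palbociclib point is the lowest of each gene, with the widest gap for RRM2, at 90.7 CPM against 506 and 496 CPM.

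Among the subunits of ribonucleotide reductase, RRM2, the S phase small subunit, had the lowest ratio of the 10 genes. It had 1473 reads with palbociclib, 9969 with CDK4 siRNA and 10424 in untreated cells. Scaled, these were 90.7 CPM with palbociclib (86.2 to 95.5), 506 CPM with CDK4 siRNA (496 to 516) and 496 CPM in untreated cells (487 to 506). The palbociclib library thus stood alone, at 0.183 of the untreated level (0.173 to 0.193) and at position 82 from the lowest of the 12694 log2 ratios. RRM1, the large subunit that carries the catalytic and allosteric sites, had 1579 reads with palbociclib, 3510 with CDK4 siRNA and 4094 in untreated cells, or 97.3, 178 and 195 CPM. Its ratio of 0.499 (0.47 to 0.529) lay on the 2-fold limit, so RRM1 was lower by the rule with TMM and missed it with DESeq2 size factors, with upper quartile scaling and with TMM fitted without mitochondrial and ribosomal genes, at log2 ratios of −0.98, −0.88 and −0.997. RRM2B, the other small subunit, had 1049 reads with palbociclib, 1481 with CDK4 siRNA and 1970 in untreated cells, or 64.6, 75.2 and 93.8 CPM. At 0.689 of the untreated level (0.639 to 0.743) it was among the genes of the supply set that changed least with palbociclib, and it did not pass the 2-fold rule. RRM2B was also the gene furthest from the untreated level in the CDK4 siRNA library, at 0.801 (0.749 to 0.858), so its untreated level was the highest of the 3. Its siRNA log2 ratio was at position 878 from the lowest of the 12694.

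The bases before the start of RRM2 are shown because this gene differed most. The stretch is chr2:10122489-10122738 of GRCh38.p14, plus strand, 250 bases up to the start site of one of the RefSeq transcripts. It holds 3 copies of the CCAAT box, the motif bound by the factor NF-Y, which are in capitals. They start 123, 93 and 66 bases before the start site. The window of the other RRM2 start site holds 1 CCAAT box, and the one with more is shown.
RRM2: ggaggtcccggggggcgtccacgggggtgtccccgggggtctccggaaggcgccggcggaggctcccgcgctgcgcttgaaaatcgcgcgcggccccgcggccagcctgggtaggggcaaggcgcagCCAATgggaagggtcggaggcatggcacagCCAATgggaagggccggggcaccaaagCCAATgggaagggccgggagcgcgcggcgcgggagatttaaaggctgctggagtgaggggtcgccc

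In thymidylate supply, TK1, the cytosolic thymidine kinase, had the highest level of the 10 genes in each library and a ratio just past the 2-fold rule. It had 4976 reads with palbociclib, 12566 with CDK4 siRNA and 13827 in untreated cells. Its level was 306.5 CPM with palbociclib (298 to 315), 638 with CDK4 siRNA (627 to 649) and 658 in untreated cells (647 to 669). The palbociclib level was 0.466 of the untreated level (0.451 to 0.481), while that of the siRNA library was 0.969 (0.946 to 0.993). DUT, the dUTPase that keeps uracil out of DNA, had 520 reads with palbociclib, 1420 with CDK4 siRNA and 1501 in untreated cells, or 32.03, 72.1 and 71.5 CPM. DUT was at 0.448 (0.405 to 0.495) with palbociclib, the second lowest ratio of the 10, though its interval also holds the ratios of TK1 and SAMHD1. Counts are per gene, so the nuclear and mitochondrial isoforms of DUT are not separated. TYMS, thymidylate synthase and the target of fluoropyrimidine drugs, had 1005 reads with palbociclib, 2300 with CDK4 siRNA and 2295 in untreated cells, or 61.9, 117 and 109 CPM. Its ratio of 0.566 (0.525 to 0.61) did not pass the 2-fold rule with TMM and did so when read totals were used, at a log2 ratio of −1.02. DTYMK, thymidylate kinase, had 1174 reads with palbociclib, 2147 with CDK4 siRNA and 2261 in untreated cells, or 72.3, 109 and 108 CPM. At 0.672 (0.625 to 0.721) with palbociclib, DTYMK was closest to the untreated level among the thymidylate genes.

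The stretches before the starts of TK1, DUT and TYMS are shown to set these thymidylate genes beside RRM2. Each is 250 bases up to a RefSeq start site in GRCh38.p14: chr17:78187053-78187302 on the minus strand for TK1, chr15:48331947-48332196 on the plus strand for DUT, and chr18:657403-657652 on the plus strand for TYMS. Capitals mark CCAAT boxes and E2F words, in either orientation. TK1 has 2 inverted CCAAT boxes, DUT has 2 E2F words and TYMS has 1, and none of the 3 stretches holds both motifs. DTYMK, whose stretch is not shown, also has 2 CCAAT boxes, and it was not called lower with palbociclib. The windows shown are those with the most matches: TK1 has another RefSeq start site with no CCAAT box in its window, and DUT has 3 others with no E2F word.
TK1: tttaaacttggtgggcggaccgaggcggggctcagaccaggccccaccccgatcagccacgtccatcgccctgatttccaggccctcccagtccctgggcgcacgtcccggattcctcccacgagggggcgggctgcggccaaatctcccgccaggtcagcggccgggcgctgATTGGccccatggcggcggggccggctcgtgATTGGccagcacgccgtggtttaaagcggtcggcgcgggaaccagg
DUT: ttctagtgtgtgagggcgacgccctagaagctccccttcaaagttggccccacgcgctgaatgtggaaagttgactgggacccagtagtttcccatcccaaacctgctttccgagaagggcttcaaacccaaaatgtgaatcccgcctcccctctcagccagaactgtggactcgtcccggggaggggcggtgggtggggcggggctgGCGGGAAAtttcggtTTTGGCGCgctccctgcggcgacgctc
TYMS: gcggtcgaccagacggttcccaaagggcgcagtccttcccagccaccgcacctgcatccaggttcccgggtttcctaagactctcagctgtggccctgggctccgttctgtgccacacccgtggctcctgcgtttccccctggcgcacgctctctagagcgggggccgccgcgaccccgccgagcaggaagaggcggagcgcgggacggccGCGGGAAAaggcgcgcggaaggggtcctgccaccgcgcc

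RefSeq windows, 250 bases before to 50 after a start site, were at hand for 9 of the 10 genes, some with several start sites. The E2F words searched were TTTCCCGC, TTTCGCGC, TTTGCCGC and TTTGGCGC on both strands, and 3 of the 9 genes, TYMS, DUT and DCK, have such a word in a window, against 3.99% of all 27305 genes with windows. CCAAT on either strand was found in 5 of the 9, namely RRM1, RRM2, TK1, DTYMK and SAMHD1, against 39.7% of all genes. The CHR element TTTGAA was found in RRM1 and DUT, against 18.2% of all genes. Of the genes with CCAAT, RRM1, RRM2, TK1 and SAMHD1 were called lower with palbociclib and DTYMK was not. Of those without it, DUT was called lower and TYMS, DCTPP1 and DCK were not. Of the genes with an E2F word, DUT was called lower and TYMS and DCK were not. Of those without one, RRM1, RRM2, TK1 and SAMHD1 were called lower and DTYMK and DCTPP1 were not. A link between motifs and ratios was not tested. A match describes letters in the window and is not a measured binding site.

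Of the genes of clean-up, salvage and breakdown, DCTPP1, which clears dCTP and its modified forms, had 932 reads with palbociclib, 1702 with CDK4 siRNA and 1916 in untreated cells, or 57.4, 86.4 and 91.2 CPM. Its ratio with palbociclib was 0.629 (0.581 to 0.681). DCK, the deoxycytidine kinase that also activates cytarabine and gemcitabine, had 337 reads with palbociclib, 544 with CDK4 siRNA and 628 in untreated cells, or 20.8, 27.6 and 29.9 CPM. DCK was the gene of the 10 closest to the untreated level with palbociclib, at 0.694 (0.606 to 0.794). That interval also holds the ratios of RRM2B, DTYMK and DCTPP1, so the order among them is not resolved. SAMHD1, the deoxynucleotide triphosphohydrolase, had 310 reads with palbociclib, 733 with CDK4 siRNA and 830 in untreated cells, or 19.1, 37.2 and 39.5 CPM. At 0.483 (0.423 to 0.551) SAMHD1 was lower by the 2-fold rule, so a gene of deoxynucleotide breakdown was among the 5 called along with genes of synthesis. Its interval holds the 2-fold limit itself, like that of RRM1.

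None of the 10 genes passed the 2-fold rule in either direction in the siRNA library, where 0.118% of all genes were lower and 1.1% higher. The ratios ran between 0.801 for RRM2B and 1.07 for TYMS, and their median log2 ratio was −0.06 against −0.02 for all genes. RRM2B, RRM1 and TK1 had intervals below 1, as did 23.7% of all genes, and TYMS had an interval above 1, as did 17.7%. RRM1 was at 0.914 (0.873 to 0.956) and TYMS at 1.07 (1.01 to 1.13). For RRM2, DTYMK, DUT, DCTPP1, DCK and SAMHD1 the interval included 1, for example 1.02 (0.992 to 1.05) for RRM2 and 0.923 (0.822 to 1.04) for DCK. Values this close to 1 depend on the scaling: with DESeq2 size factors TYMS came to a log2 ratio of 0.06, against 0.10 with TMM, and with read totals TK1 came to 0.01, against −0.05 with TMM. RRM1, RRM2B, DCTPP1, DCK and SAMHD1 stayed below 0 under each scaling run and TYMS stayed above 0, while RRM2, TK1, DTYMK and DUT changed side.

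**Figure D2:**
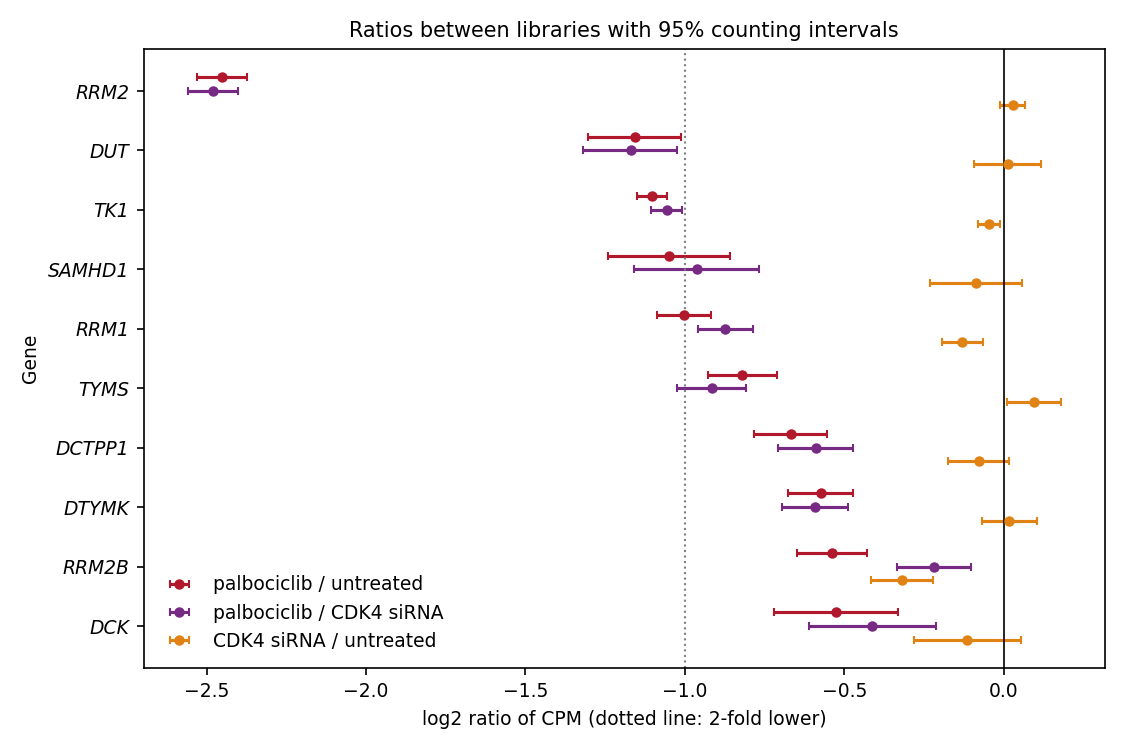
Log2 ratios of CPM, with no prior count, for the 10 genes in 3 comparisons: palbociclib over untreated, palbociclib over CDK4 siRNA and CDK4 siRNA over untreated. Bars are exact 95% counting intervals, and the dotted line marks a 2-fold lower level. RRM2 lies far to the left of the other genes in both palbociclib comparisons, and the CDK4 siRNA ratios lie around 0, with RRM2B the lowest at 0.801 of the untreated level.

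Set directly against the siRNA library, the palbociclib library again had lower levels of all 10 genes. The intervals of all 10 lay below 1, as did 41.4% over all genes, where 35.7% lay above 1. RRM2 at 0.179 (0.17 to 0.189), DUT at 0.444 (0.401 to 0.492) and TK1 at 0.481 (0.465 to 0.497) were lower by the 2-fold rule and no gene was higher, against 13.8% lower and 8.75% higher of all genes. The median log2 ratio was −0.89, against −0.08 for all genes. RRM2B was closest to the siRNA level, at 0.859 (0.793 to 0.931), followed by DCK at 0.752 (0.654 to 0.863), with overlapping intervals. TYMS, at 0.53 (0.492 to 0.571), SAMHD1, at 0.513 (0.448 to 0.587), and RRM1, at 0.546 (0.514 to 0.579), stayed short of the rule. The call of TK1 was lost with DESeq2 size factors, at a log2 ratio of −0.999, and with upper quartile scaling, at −0.95, which left RRM2 and DUT. Of all genes, 12.4% and 11.6% were lower in these settings. Scaling by read totals put 6 genes past the rule, with RRM1, TYMS and SAMHD1 added. With read totals 20.8% of all genes were lower, against 13.8% with TMM, and 19.8% of all calls were higher, against 38.8% with TMM. This comparison shares the palbociclib library with the comparison against untreated cells, so their likeness is no independent evidence.

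Summed over the 10 genes, the palbociclib library held 13355 reads, the CDK4 siRNA library 36372 and the untreated library 39746. These are 0.0741%, 0.198% and 0.196% of all reads, or 823, 1846 and 1892 CPM. The make-up of the sum changed mainly through RRM2. Per length of transcript, in the authors' deposited FPKM, RRM2 made up 5.88% of the summed level of the 10 genes with palbociclib, 15.8% with CDK4 siRNA and 15.2% in untreated cells. TK1 held nearly the same share throughout, at 43.4%, 43.6% and 44.1%. The shares of DTYMK, at 14.0%, 10.2% and 9.84%, and of DCTPP1, at 11.2%, 8.13% and 8.41%, were larger with palbociclib than in the other libraries.

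**Figure D3:**
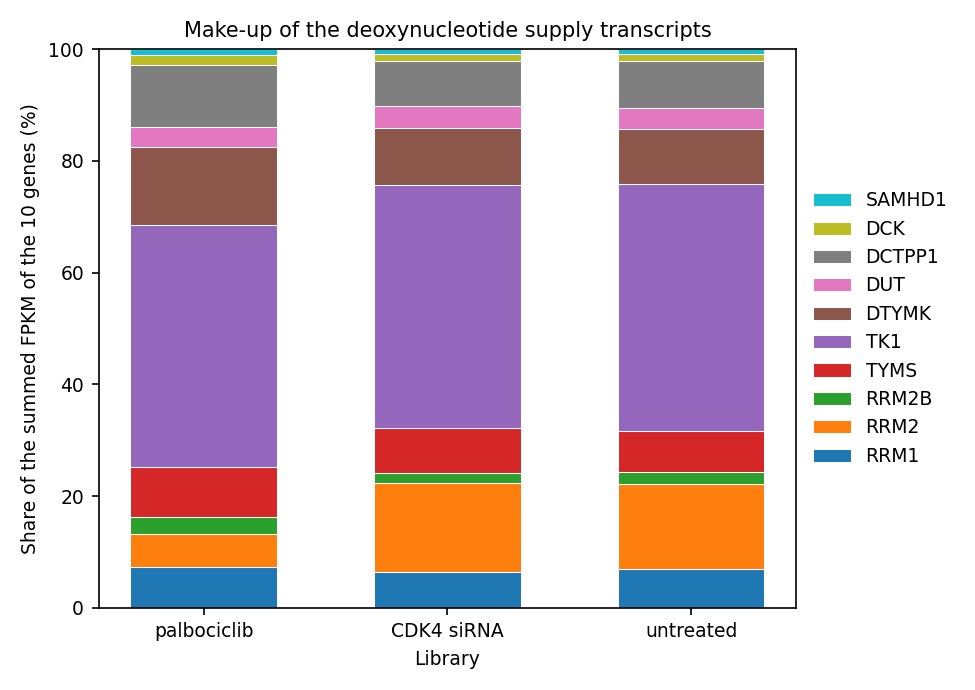
Share of each gene in the summed deposited FPKM of the 10 genes, in percent, with 1 bar each for the palbociclib, CDK4 siRNA and untreated library. The RRM2 segment shrinks to 5.88% with palbociclib, against 15.2% in untreated cells, while TK1 keeps about the same share.

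The order of the genes by FPKM was close to identical in the CDK4 siRNA and untreated libraries and differed with palbociclib for RRM2. In untreated cells TK1 led at 405 FPKM, followed by RRM2 at 140, DTYMK at 90.3, DCTPP1 at 77.2, TYMS at 68.0, RRM1 at 63.7, DUT at 34.4, RRM2B at 19.7, DCK at 11.4 and SAMHD1 at 8.54 FPKM. Of these neighbours, only TYMS and RRM1 had overlapping counting intervals. The siRNA library had the same order, from TK1 at 407 FPKM to SAMHD1 at 8.35 FPKM, with DCTPP1 and TYMS overlapping at 75.9 and 75.4 FPKM. With palbociclib RRM2 took the sixth place at 22.3 FPKM, below RRM1 at 27.7 FPKM. TK1 at 164 FPKM still led, DUT at 13.4 and RRM2B at 11.8 FPKM overlapped, and SAMHD1 at 3.60 FPKM was last. TK1 ranked at position 309 of all 48162 entries with palbociclib, 106 with CDK4 siRNA and 112 in untreated cells.

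Ratios between genes of the same library do not depend on how libraries are scaled. The FPKM ratio of RRM2 to RRM1 was 0.804 (0.748 to 0.864) with palbociclib, 2.45 (2.36 to 2.54) with CDK4 siRNA and 2.19 (2.12 to 2.28) in untreated cells. The small subunit mRNA was thus more abundant per length than the large subunit mRNA in the siRNA and untreated libraries and less abundant in the palbociclib library. This order, like any between genes in FPKM, rests on the gene lengths used. The deposited values imply 3673 bases for RRM2 and 3166 for RRM1, and the intervals do not cover error in these lengths. With palbociclib the ratio of RRM2 to RRM1 was 0.366 of its untreated value (0.338 to 0.397), a change that does not depend on the lengths. RRM2B was also lower with palbociclib, but by less than RRM2 and RRM1, so its ratio to each of them rose. Its FPKM ratio to RRM2 was 0.53 (0.49 to 0.575) with palbociclib, 0.111 (0.105 to 0.117) with CDK4 siRNA and 0.141 (0.134 to 0.148) in untreated cells. That is a change of 3.77 times with palbociclib (3.43 to 4.14) and of 0.786 times with CDK4 siRNA (0.73 to 0.846), both against untreated cells. RRM2 nevertheless had the higher FPKM of the small subunits in every library. RRM2B to RRM1 changed by 1.38 times with palbociclib (1.25 to 1.52) and by 0.877 times with siRNA (0.808 to 0.952).

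Within the thymidylate branch the ratios moved less. TYMS to TK1, the synthesis route over the salvage route, was 0.204 with palbociclib, 0.185 with CDK4 siRNA and 0.168 in untreated cells, a change of 1.22 times with palbociclib (1.12 to 1.32) and 1.10 times with siRNA (1.04 to 1.17). TYMS relative to DTYMK changed by 0.843 times with palbociclib (0.76 to 0.935), and TYMS relative to DUT by 1.26 times (1.11 to 1.43), while both intervals for the siRNA library included 1. TK1 relative to DCK, the thymidine over the deoxycytidine kinase, was 23.9 with palbociclib, 37.3 with CDK4 siRNA and 35.6 in untreated cells, a change of 0.671 times with palbociclib (0.584 to 0.771). DUT relative to DCTPP1 changed by 0.712 times (0.626 to 0.81). SAMHD1 relative to RRM1, breakdown over synthesis, was 0.130, 0.138 and 0.134 in the palbociclib, CDK4 siRNA and untreated libraries, and its change of 0.968 times with palbociclib had an interval that included 1 (0.837 to 1.12).

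**Figure D4:**
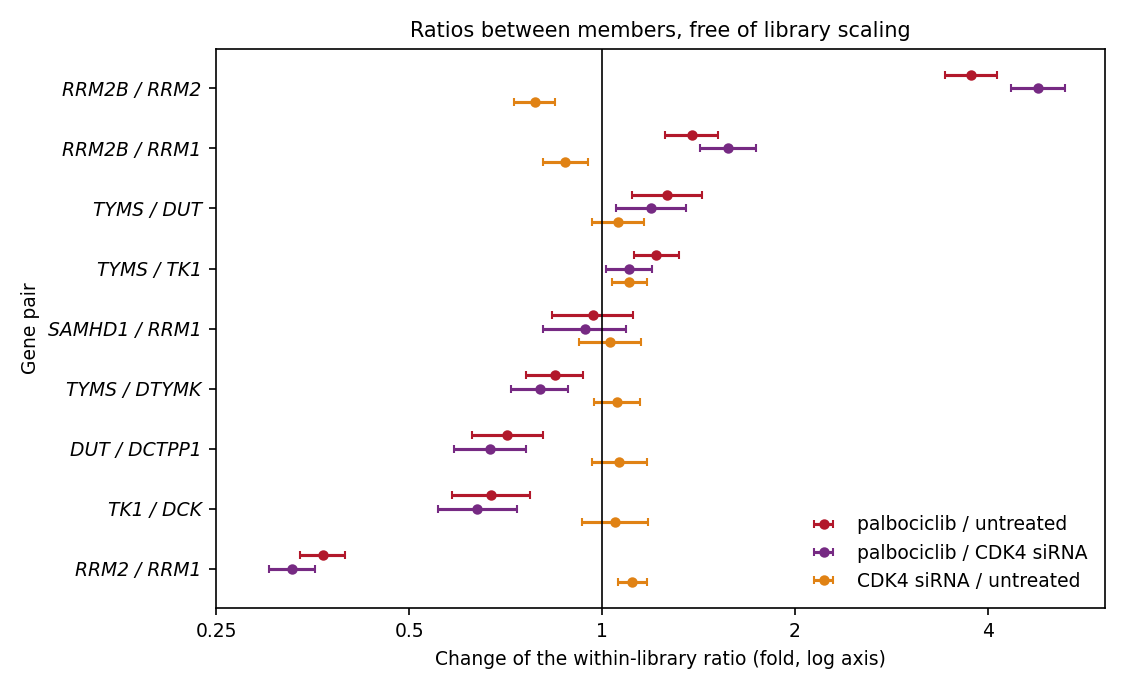
Change of the ratio between pairs of the 10 genes, taken within each library, as a fold on a log axis for palbociclib over untreated, palbociclib over CDK4 siRNA and CDK4 siRNA over untreated. Bars are exact 95% intervals of the odds ratio of the 4 read counts. RRM2B to RRM2 lies furthest to the right, at 4.79 times for palbociclib over CDK4 siRNA and 3.77 times for palbociclib over untreated. RRM2 to RRM1 lies furthest to the left, at 0.328 and 0.366 times in the same comparisons.

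Some of these counts could hold or lose reads of other genes, as the strand setting of the counting is not given in the sources used here. In GENCODE 29, TYMS shares 967 of its 2470 exonic bases with ENOSF1, which lies on the opposite strand. ENOSF1 had 187 reads with palbociclib, 474 with CDK4 siRNA and 401 in untreated cells, and was at 0.603 of the untreated level with palbociclib (0.504 to 0.719) and at 1.26 with siRNA (1.10 to 1.44). Without strand, reads of TYMS and ENOSF1 in the shared stretch cannot be told apart. DCTPP1 shares 666 of 1581 exonic bases with ZNF771 on the opposite strand, which had 283, 275 and 328 reads in the palbociclib, CDK4 siRNA and untreated libraries. DCK shares 199 of 3227 exonic bases with MOB1B on the same strand, RRM2 shares 1077 of 5323 with an unnamed protein-coding entry on the same strand, whose reads were not matched, DUT shares 533 of 3674 with an unmatched antisense entry, and SAMHD1 shares 1159 of 11261 with TLDC2, which had at most 5 reads. Pseudogene and antisense entries named after the 10 genes numbered 12 in the table, most of them copies of RRM2 and DUT, and none had more than 6 reads in a library. Reads split or dropped between copies, and reads of the overlapping entries, leave the values of RRM2 and DUT uncertain to an unknown extent.

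In the wider nucleotide pathway, 7 of 9 compared genes of pyrimidine synthesis and 11 of 14 of purine synthesis had palbociclib intervals below 1, against 41.9% of all genes. Calls by the 2-fold rule are read here against 13.6% lower and 10% higher of all genes, and medians against −0.07. Of the pyrimidine genes 3 were lower by the rule and 0 were higher, and their median log2 ratio was −0.66. The lower genes were the CTP synthases CTPS1, at 32.5 CPM with palbociclib, 74.1 CPM with CDK4 siRNA and 89.3 CPM in untreated cells, a ratio of 0.363 (0.329 to 0.4), and CTPS2 at 0.435 (0.361 to 0.522), and the nucleoside diphosphate kinase NME4 at 0.408 (0.368 to 0.451). CAD, which starts pyrimidine synthesis, was at 1.05 (1.01 to 1.08). Of the 14 purine genes 2 were lower, a share near the 13.6% of all genes, and 0 were higher, at a median of −0.52. PRPS2, which makes the ribose phosphate donor, was at 0.451 (0.408 to 0.498), PFAS at 0.46 (0.432 to 0.49) and GMPS at 0.545 (0.509 to 0.583), while PPAT, which starts purine synthesis, was at 1.24 (1.16 to 1.32) and GART at 1.04 (1.00 to 1.09). With read totals CAD came to 0.911 and GART to 0.91, so the side of 1 on which they lie depends on the scaling.

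Folate and one-carbon genes supply the methyl group for thymidylate, and they were split. Of 10 measured genes 3 were lower with palbociclib, against 13.6% of all genes, and 1 was higher, the same share as the 10% of all genes. The median log2 ratio was −0.48, against −0.07 for all genes. SHMT1, at 0.377 (0.336 to 0.423), and MTHFD1, at 0.421 (0.396 to 0.447), both enzymes of the cytosol, were among the lower genes. The mitochondrial enzymes MTHFD2 at 1.72 (1.66 to 1.79) and SHMT2 at 1.08 (1.04 to 1.11) did not pass the rule. SHMT2 came to 0.939 with read totals. With CDK4 siRNA the median of this list was −0.00. None of its genes passed the rule there, against 0.118% lower and 1.1% higher of all genes.

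Salvage and transport genes other than TK1 and DCK had 2 lower and 0 higher members of 16, near the 13.6% lower of all genes and against 10% higher. Of these, CMPK2, a mitochondrial nucleotide kinase named after its values were seen, rests on 6 reads with palbociclib, 26 with CDK4 siRNA and 29 in untreated cells. Their median log2 ratio of −0.09 was close to that of all genes and turned positive with upper quartile scaling. SLC29A1, the main nucleoside transporter of the cell membrane, had 85.5 CPM with palbociclib, 170 CPM with CDK4 siRNA and 181 CPM in untreated cells, a ratio of 0.472 (0.443 to 0.502). HPRT1, of purine salvage, was at 0.695 (0.625 to 0.773) and ADA, adenosine deaminase, at 0.737 (0.614 to 0.883). The phosphorylase genes UPP1 at 1.89 (1.67 to 2.14) and PNP at 1.55 (1.43 to 1.68) and the cytidine deaminase gene CDA at 1.46 (1.24 to 1.72) had intervals above 1. Of 10 genes of nucleotide breakdown and pool cleaning 1 was higher, NT5E, the surface 5′-nucleotidase CD73, at 2.73 (2.51 to 2.98), and none was lower, against 10% higher and 13.6% lower of all genes, with a median of −0.19. NUDT1, which removes oxidised purine nucleotides, was at 0.499 (0.435 to 0.571) just short of the rule on the log2 scale, NUDT5 was at 0.519 (0.468 to 0.574), CMPK1, which is also in the pyrimidine list, at 0.729 (0.681 to 0.78), and NT5C3A at 1.25 (1.10 to 1.42).

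S phase genes driven by E2F are the list closest in kind to the 10 genes. Of 20 such genes 6 were lower with palbociclib and 0 were higher, against 13.6% lower and 10% higher of all genes. Their median log2 ratio was −0.76, against −0.07 for all genes. CCNE2 was at 0.187 (0.125 to 0.272), GINS2 at 0.312 (0.277 to 0.35) and MCM4 at 0.336 (0.321 to 0.351), whereas UNG, the uracil glycosylase that removes the base DUT keeps out, was at 1.45 (1.37 to 1.55) and CDT1 at 1.05 (1.01 to 1.09). CDT1 came to 0.918 with read totals. E2F1 itself had 67.6 CPM with palbociclib, 61.0 CPM with CDK4 siRNA and 64.0 CPM in untreated cells. With CDK4 siRNA no gene of any of these 6 lists passed the 2-fold rule, where 0.118% of all genes were lower and 1.1% higher. The medians of the 6 lists lay between −0.19 for purine synthesis and −0.00 for folate genes.

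**Figure D5:**
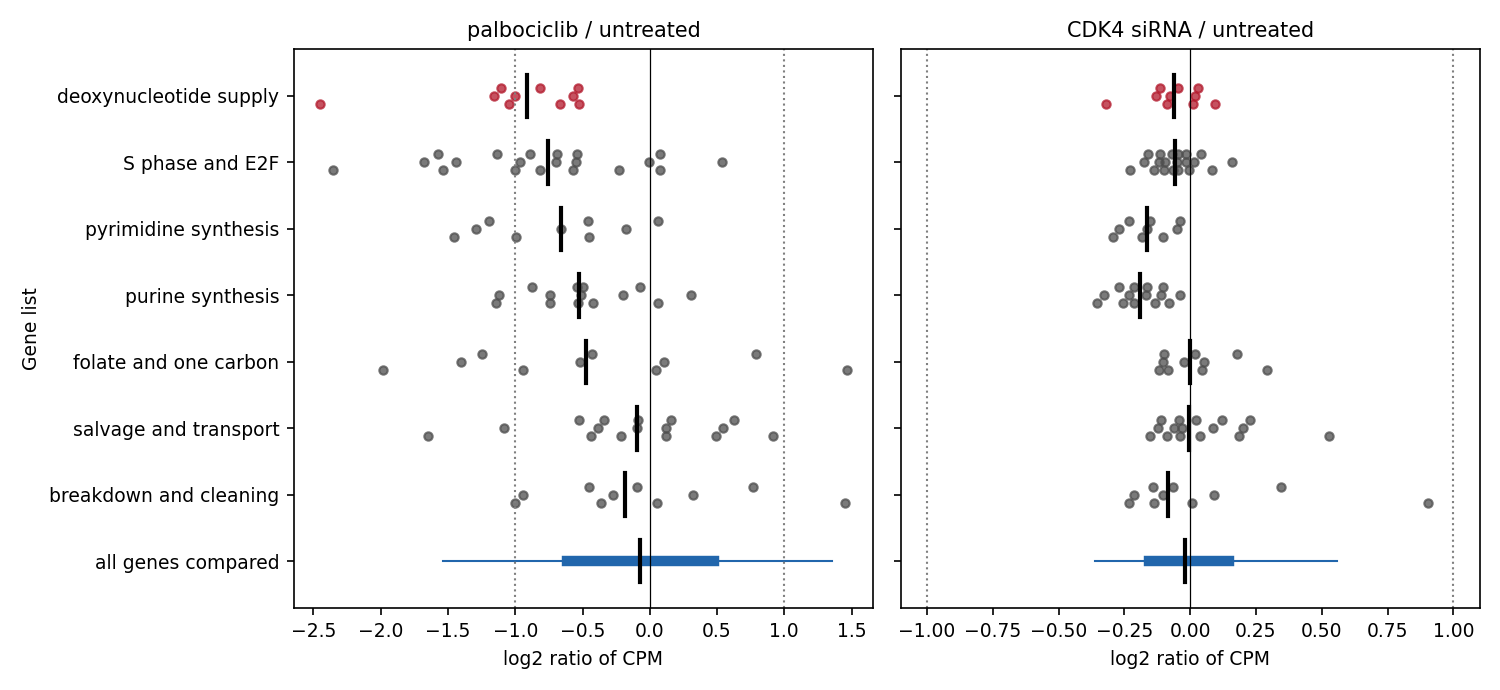
Log2 ratios of CPM for the 10 deoxynucleotide supply genes and the genes of 6 related lists, for palbociclib over untreated on the left and CDK4 siRNA over untreated on the right, with different horizontal ranges. Points are genes, black bars are medians, and the bottom line gives all 12694 genes with the 5th to 95th percentile as a thin and the 25th to 75th as a thick line. The 10 genes have a median of −0.91 on the left and −0.06 on the right.

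Genes with the most similar values were sought among 7238 other genes with a mean of at least 20 CPM, by distance over the log2 ratios of both treated libraries to the untreated one. These are 2 values per gene, from 3 libraries that share the untreated one, so likeness is a description of these libraries. For RRM2 the nearest were POLA2, a subunit of DNA polymerase alpha, at 0.182 with palbociclib and 1.00 with siRNA, then FAM64A, KANK2, HNRNPD and ABHD11, all within 0.15 on the log2 scale. For TK1 they were ANAPC4, FAM122B, TP53BP1, BRCC3 and EXOSC9, at distances of up to 0.02, and for RRM2B they were TPD52L1, CSTB, OSBPL11, PPT1 and ALG1, at up to 0.03. The distances were wider around RRM2.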

How the data were processed

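RNA-seq was analysed from 3 HCT116 libraries, 1 per group. Read counts per gene, not normalised, and FPKM values were deposited by the authors. The submitters' processing notes list HTSeq 0.6.1, hg19 and DESeq, and the sources used here do not give aligner, annotation or strand setting. The deposited FPKM are the same counts over gene length and library total, to within a relative 9e-12 over 16938 genes.

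Counts were scaled with TMM (edgeR 4.0.16, R 4.3.3). CPM intervals are exact Poisson and ratio intervals exact Clopper-Pearson. Log2 ratios used a prior count of 2. Within-library changes used the exact conditional odds ratio (scipy 1.17.1). The code was tested on simulated data. With 1 library per group no p-value was computed, and every comparison lacks a replicate check. DESeq2 1.42.0 gave alternative size factors.

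The 10 genes and the 6 pathway lists were chosen with earlier results of these data known. From each pathway list the text names the 3 highest and 3 lowest genes with palbociclib, at a mean of at least 5 CPM with an interval on that side of 1. It also names CDK4, ENOSF1, CCNF, FZR1 and E2F1, and 5 nearest genes each for RRM2, TK1 and RRM2B. Some genes and 1 list that fall under the rule are not reported here. Sequences are from RefSeq tables of GRCh38.p14 and overlaps from GENCODE 29, also GRCh38. Neither was mixed with coordinates of the files, which hold none.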

Additional observations from a re-analysis of the deposited data

How the results depend on the processing

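No paired analysis was possible because each group has 1 library. Over 10 alternative settings RRM2 and DUT were lower than untreated with palbociclib by the size rule in every setting. TK1 and SAMHD1 failed with upper quartile scaling alone, and RRM1 passed in 8 of 11 settings, the main one included. These tallies overstate stability. Changing the low-count limit or summing rows could not alter a call, as each gene has 1 entry and a mean above 5 CPM. The 1.5-fold rule could only add calls, and deposited FPKM repeats the read totals. RRM1 failed with DESeq2 size factors, with upper quartile scaling and with TMM fitted without mitochondrial, ribosomal and MALAT1 genes. The number of the 10 genes called lower with palbociclib was 5 in the main setting and 2 with upper quartile scaling. Of all genes, 13.6% and 11.1% were lower in these settings. Against CDK4 siRNA the number of the 10 was 3 in the main setting, 2 with DESeq2 size factors and 2 with upper quartile scaling. In the last 2 settings TK1 lost its call. The number was 6 with read totals, 6 with deposited FPKM and 8 with a 1.5-fold rule. The shares of all genes called lower than with CDK4 siRNA were 13.8%, 12.4%, 11.6%, 20.8%, 21.3% and 25.8% in the same order of settings. The median log2 ratio moved to −1.11 against untreated and −1.15 against CDK4 siRNA with read totals, and to −1.11 and −1.15 with deposited FPKM. Those moves follow from the scaling, which shifts all genes nearly alike. The distance to the median of all genes therefore stayed at −0.84 and −0.82 by construction. No setting put any of the 10 genes past the rule with CDK4 siRNA, where 0.118% of all genes were lower and 1.1% higher in the main setting. Over all genes, calls for CDK4 siRNA numbered 140 higher and 15 lower in the main setting, 33 and 1 at a mean of at least 5 CPM, and 436 and 103 with no filter. A 1.5-fold rule gave 481 and 115. For palbociclib the main counts of 1269 higher and 1722 lower became 841 and 2427 with read totals, 2076 and 2041 with no filter and 2578 and 3216 with the 1.5-fold rule. Against CDK4 siRNA 1111 and 1753 became 655 and 2646, 1721 and 2198, and 2471 and 3269. Depth sets the counting error, from 310 reads for SAMHD1 to 13827 for TK1.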

Other observations

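Regulators of these genes were measured too. CCNF, the cyclin F that marks RRM2 protein for destruction in G2, had 40.1 CPM with palbociclib, 147 CPM with CDK4 siRNA and 151 CPM in untreated cells, a palbociclib ratio of 0.266 (0.244 to 0.289). FZR1, the Cdh1 activator of the anaphase-promoting complex, which marks RRM2 and TK1 proteins in G1, had 142, 127 and 120 CPM in the palbociclib, CDK4 siRNA and untreated libraries, a palbociclib ratio of 1.18 (1.12 to 1.25). Protein levels were not measured here.

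NME2, a nucleoside diphosphate kinase, was at 0 reads in every library, while its neighbour NME1 had 706, 1195 and 1446 reads and the read-through entry NME1-NME2 had 29, 54 and 37 in the palbociclib, CDK4 siRNA and untreated libraries. NME2 and NME1 were singled out after their values were seen, and the cause was not tested.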
